A study of Mus musculus with 12 samples.

Results

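The SLC25 genes encode carriers that move metabolites across the inner membrane of mitochondria. Members were all genes whose symbol is Slc25a followed by a number, apart from Slc25a20, and the Ucp genes were not counted among them. The rule found 45 members among 22180 genes tested, and each had 1 transcript cluster, the unit of the array, that carried its symbol alone. The choice used names and not measured values. Slc25a52 and the pseudogene Slc25a5-ps were not analysed here.

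SLC25 proteins share a fold of repeated membrane-spanning segments, are made in the cytosol and reach the inner membrane through the TIM translocases. Most exchange a substrate of the matrix for one of the intermembrane space, so that they link the citric acid cycle, ATP synthesis and the cofactor pools of mitochondria to the rest of the cell. In white adipocytes the citrate carrier supplies carbon for fatty acid synthesis, and in brown and beige adipocytes the family also includes the uncoupling protein UCP1, which lets protons return without ATP synthesis.

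RNA of mouse inguinal white fat (iWAT), a depot beneath the skin, was measured on 12 arrays in 4 groups of 3. AKO mice, in which Adiponectin-Cre deletes floxed Baf60a (Smarcd1) in adipocytes, were kept in cold (AKO Cold) or at room temperature (AKO RT), as were control mice with the same floxed alleles and no deletion (flox Cold and flox RT). Cold was 10 °C for 7 days after gradual adaptation, room temperature (RT) was 22 °C, and the labels gave all mice an age of 9 months, although the methods describe younger mice for cold acclimation. Each array held 400 ng of RNA from 1 or 2 mice, so that p-values measure the spread between such pools, and sex and batch were not in the labels. Cells other than adipocytes keep Baf60a in this model. In whole tissue, fewer cells of a type and less RNA per cell cannot be told apart.

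Values are log2 signals, and a difference is AKO minus flox or cold minus RT, with its standard error (SE). A member was called when its limma p-value, adjusted by Benjamini-Hochberg over the 22180 genes, was below 0.05. Signals of different genes were not compared, since probes differ in brightness. The overall median signal was 3.635, and 34 of the 45 members exceeded it in all 12 arrays, Slc25a47 in 9 and Slc25a34 only in the 3 AKO Cold arrays. The 9 that exceeded it in fewer than 3 arrays were Slc25a2, Slc25a18, Slc25a21, Slc25a29, Slc25a31, Slc25a41, Slc25a43, Slc25a48 and Slc25a54.

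Across arrays, Pearson's r over all clusters was 0.981 to 0.987 within groups and 0.978 to 0.985 between them. Smarcd1, the targeted gene, had signals of 6.26 to 6.37 in AKO Cold and 6.27 to 6.89 in flox Cold, and of 5.89 to 6.30 in AKO RT and 6.42 to 6.91 in flox RT, so that the genotypes overlapped in cold, and where its probes lie relative to the deleted exons was not tested. The 16 measured markers of mature adipocytes had array means, after each gene was centred on its 12-array mean, of -0.04 to 0.09 in AKO Cold, -0.06 to 0.14 in flox Cold, -0.10 to 0.14 in AKO RT and -0.38 to 0.01 in flox RT. At RT, 14 of the 16 were higher in AKO than in flox (median 0.17), and in flox 15 were higher in cold than at RT (median 0.20). The 25 skeletal muscle markers ranged from -1.78 to 2.96 in AKO Cold, -1.38 to 0.74 in flox Cold, -1.46 to 2.36 in AKO RT and -1.55 to 0.85 in flox RT. AKO RT 2, AKO Cold 2 and AKO Cold 3 were the arrays richest in them, and 24 of the 25 were higher in AKO in cold (median 1.24) and 23 at RT (median 0.72), with 0 called by limma and 0 at an unadjusted p below 0.05. The array means of the 8 beige adipocyte markers moved with both factors. They were 2.03 to 2.42 in AKO Cold, -0.45 to 0.34 in flox Cold, -0.82 to -0.69 in AKO RT and -1.34 to -1.18 in flox RT. Of the 8, 6 were higher and 2 lower in AKO at RT, and all 8 were higher in AKO in cold. All 5 macrophage markers were lower in cold in both genotypes, with a median of -0.37 in the average over genotypes, where limma called 0 and 4 had an unadjusted p below 0.05. In that average the medians of 14 mammary epithelium, 4 B cell and 2 erythroid markers were -0.00, 0.02 and 0.46, with 0 called.

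The promoters of 4 called members are shown, because these genes carry the main differences below. They are Slc25a10, which differed by genotype, Slc25a1, which had the smallest p for cold among the carboxylate carriers, and Slc25a42 and Slc25a39, which were higher in cold in AKO. Each is the 250 bases before an annotated start in RefSeq on build GRCm38.p6, written 5′ to 3′ in the direction of transcription. For Slc25a10, Slc25a1 and Slc25a42 the window adjoins the outer bound of the gene. The Slc25a39 window precedes a start inside the gene, whose RefSeq bounds are chr11:102402969-102408675. The windows lie at chr11:120491587-120491836 on the plus strand, chr16:17928220-17928469 on the minus strand, chr8:70212282-70212531 on the minus strand and chr11:102407518-102407767 on the minus strand. Capitals mark matches, on either strand, to the CCAAT box (CCAAT), the GC box (GGGCGG) or the E-box (CACGTG).
Slc25a10: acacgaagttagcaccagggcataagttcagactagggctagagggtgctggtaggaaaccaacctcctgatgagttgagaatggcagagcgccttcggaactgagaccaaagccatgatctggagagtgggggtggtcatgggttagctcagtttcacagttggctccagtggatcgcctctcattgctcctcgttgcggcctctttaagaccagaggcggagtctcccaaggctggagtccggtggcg
Slc25a1: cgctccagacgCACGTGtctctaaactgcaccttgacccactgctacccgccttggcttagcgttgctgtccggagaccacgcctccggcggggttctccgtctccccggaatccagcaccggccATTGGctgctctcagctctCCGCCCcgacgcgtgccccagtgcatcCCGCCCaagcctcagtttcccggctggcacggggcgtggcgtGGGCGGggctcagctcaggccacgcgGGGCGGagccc
Slc25a42: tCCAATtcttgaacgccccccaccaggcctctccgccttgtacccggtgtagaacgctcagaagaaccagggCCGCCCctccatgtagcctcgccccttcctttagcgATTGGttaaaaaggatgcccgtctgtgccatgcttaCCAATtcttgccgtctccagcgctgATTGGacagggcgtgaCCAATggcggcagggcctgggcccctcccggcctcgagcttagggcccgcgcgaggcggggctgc
Slc25a39: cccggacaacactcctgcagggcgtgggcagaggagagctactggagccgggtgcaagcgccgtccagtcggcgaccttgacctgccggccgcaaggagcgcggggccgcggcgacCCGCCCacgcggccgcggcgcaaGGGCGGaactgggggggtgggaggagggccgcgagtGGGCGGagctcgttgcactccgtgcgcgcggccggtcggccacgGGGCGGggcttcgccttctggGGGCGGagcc

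The Slc25a10 window held none of the 8 motifs searched. The Slc25a1 window held an E-box 239 bases before the start, a CCAAT box and 4 GC boxes, the Slc25a42 window 5 CCAAT boxes and a GC box, and the Slc25a39 window 5 GC boxes. RefSeq windows were found for 35 of the 45 members, 45 windows in all, among 32851 of the same length over all genes. A GC box was in 31 of the 45 windows (68.9%, against 32.7% of all windows), a CCAAT box in 21 (46.7%, against 33.8%) and an E-box in 8 (17.8%, against 6.02%). Windows of a member can overlap, as for Slc25a14 and Slc25a23, so that a site can be counted more than once. By gene, 24 of the 35 members had a GC box, 18 a CCAAT box and 7 an E-box. The shares of all genes were not computed by gene. The element of estrogen-related receptors (TNAAGGTCA) and a nuclear receptor repeat (AGGTCA, any base, AGGTCA) were in 0 of the 45, against 1.14% and 0.0335% of all windows. The NRF1 element (GCGC, any 2 bases, GCGC) and the cyclic AMP response element (TGACGTCA) were each in 2 windows, against 4.98% and 1.55%, and a sterol response element (TCACNCCAC) was in 1, against 1.05%. Both strands were searched, the first pair of nuclear receptor motifs can overlap each other, and these matches describe letters only.

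The heat map of all 45 members by array sets the family out by the role of its members.

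**Figure D1:**
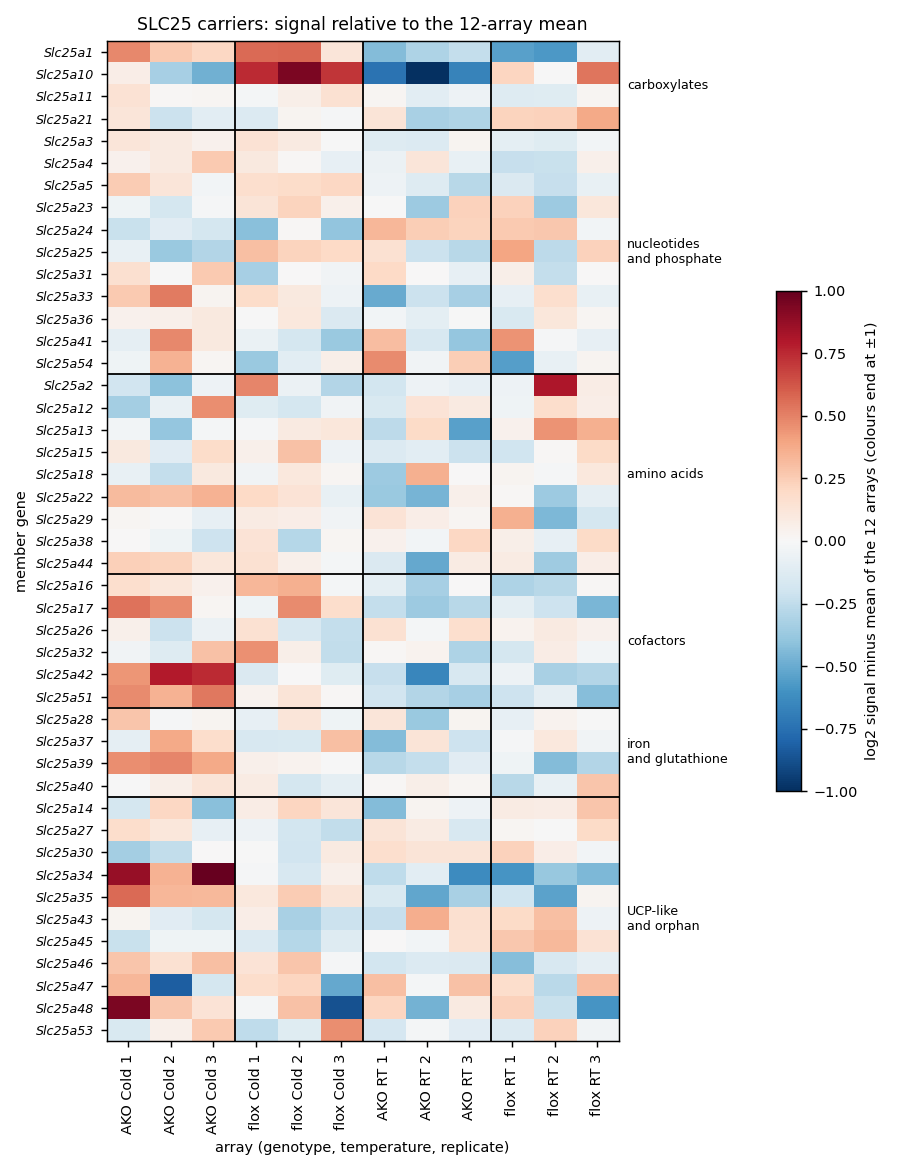
Rows are the 45 SLC25 members by role group, columns the 12 arrays, and colour the log2 signal minus the 12-array mean of the gene. Slc25a10 is darkest in opposite colours in flox Cold and AKO RT, and Slc25a34, Slc25a42, Slc25a39 and Slc25a51 are red in the 3 AKO Cold arrays.

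Among the 4 carboxylate carriers, which pass citrate, malate and related acids, Slc25a10 was lower in AKO at both temperatures and both Slc25a10 and Slc25a1 were higher in cold. Slc25a10 encodes the dicarboxylate carrier, which exchanges malate or succinate for phosphate. Its signals were 7.17, 6.77 and 6.62 in the AKO Cold arrays, against 7.86, 8.05 and 7.82 in flox Cold. At RT they were 6.37, 6.11 and 6.44 in AKO, against 7.33, 7.10 and 7.64 in flox. The genotypes did not overlap at either temperature, the 3 flox Cold arrays lay above all other 9 arrays, and the 3 AKO RT arrays lay below all other 9. The first of these patterns held for 0.681% of genes tested and the second for 0.627%.

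The Slc25a10 level in AKO was 2.07-fold lower in cold (-1.05, SE 0.17, 95% interval -1.42 to -0.68, adjusted p = 0.0302) and 2.07-fold lower at RT (-1.05, 95% interval -1.42 to -0.67, adjusted p = 0.0439). Averaged over both temperatures the difference was -1.05 (SE 0.12, adjusted p = 0.00147), and it was called in each fit that left out 1 array, with adjusted p from 0.00114 to 0.00659. The calls at single temperatures were less stable. The call in cold was lost without flox RT 1, AKO RT 1, AKO Cold 2, AKO Cold 3 or any flox Cold array (adjusted p up to 0.148), and that at RT was lost without any array other than AKO Cold 1 (up to 0.18). Without the 3 muscle-rich arrays the averaged difference had an adjusted p of 0.0548. Slc25a10 was the 1 member called in each of these 3 comparisons, and 0.0631%, 0.0451% and 0.18% of all genes were called lower in AKO in cold, at RT and in the average.

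Slc25a10 moved by the same amount with cold in both genotypes. Cold minus RT was 0.55 in AKO (SE 0.17, adjusted p = 0.248) and 0.55 in flox (SE 0.17, adjusted p = 0.319), and their average of 0.55 passed the test (SE 0.12, adjusted p = 0.0432). The interaction, the cold difference in AKO minus that in flox, was -0.00 with a 95% interval of -0.53 to 0.52. The averaged call held only without flox RT 3 or AKO Cold 3 among the 12 fits that left out 1 array (adjusted p up to 0.107).

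Slc25a1, the citrate carrier that exports citrate for fatty acid synthesis, had signals of 10.90, 10.68 and 10.63 in AKO Cold, against 9.99, 10.12 and 10.19 in AKO RT. In flox the signals were 10.99, 10.99 and 10.54 in cold and 9.88, 9.85 and 10.32 at RT. All 6 cold arrays lay above all 6 RT arrays. Averaged over genotypes, Slc25a1 was 1.66-fold higher in cold (0.73, SE 0.11, adjusted p = 0.00813) and was called in all 12 fits that left out 1 array (adjusted p 0.00327 to 0.0274). The genotype difference was -0.01 on average, with a 95% interval of -0.26 to 0.24.

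Slc25a11, the 2-oxoglutarate carrier of the malate-aspartate shuttle, differed by 0.12 with cold (SE 0.07, adjusted p = 0.502) and by 0.01 with genotype. Slc25a21, the oxodicarboxylate carrier, was dim, at 2.01 to 2.71. Its 3 flox RT arrays lay above all other 9, as did those of 0.604% of genes, and AKO minus flox at RT was -0.44 (adjusted p = 0.576).

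**Figure D2:**
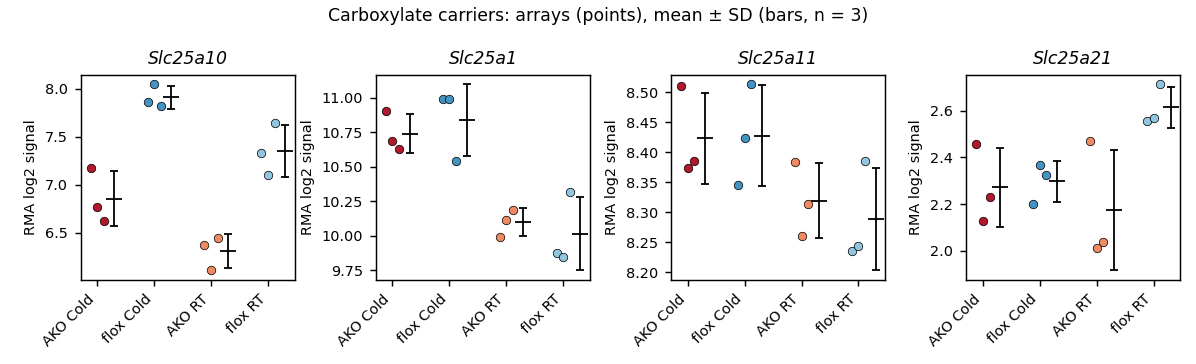
Panels show the RMA log2 signal of each array for the 4 carboxylate carriers, with the group mean and SD (n = 3) beside the points. The AKO points of Slc25a10 lie below the flox points at each temperature, and the cold points of Slc25a1 lie above its RT points.

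Enzymes that use or supply the same acids were mostly higher in cold. Of 27 measured genes of the carboxylate shuttles, 14 were called higher and 0 lower in the cold average, against 1.38% and 0.455% of all genes. Their median was 0.36, against -0.00 over all genes. The 27 are enzymes apart from the carriers Slc13a3 and Slc13a5. Acly, which splits exported citrate in the cytosol, had a cold difference of 1.20 (adjusted p = 0.000876), and Me1, the malic enzyme that makes NADPH, had one of 1.20 (adjusted p = 0.00185). Pcx, pyruvate carboxylase, was higher by 0.75 (adjusted p = 0.00596), and Gpd2, the mitochondrial enzyme of the glycerol phosphate shuttle, by 0.93 (adjusted p = 0.000813). All 4 subunits of succinate dehydrogenase (Sdha to Sdhd) rose, by 0.36 to 0.53. By genotype, Gpd2 was the 1 gene of the 27 called in the averaged comparison (0.57, adjusted p = 0.0209), and none of the others was called lower as Slc25a10 was.

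Among 14 measured genes of sulfide and glutathione metabolism, Cbs, cystathionine beta-synthase, was called lower in AKO in cold (-1.11, adjusted p = 0.0135) and at RT (-0.98, adjusted p = 0.0405), and the other 13 were not called in either comparison. Its signals were 4.22, 4.34 and 4.30 in AKO Cold, against 5.04, 5.52 and 5.63 in flox Cold. At RT they were 3.92, 3.73 and 3.94 in AKO, against 5.05, 4.64 and 4.85 in flox. Cbs was higher in cold by 0.49 in the average (adjusted p = 0.0493), in the directions also seen for Slc25a10.

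Over the family, the cold average called 9 of 45 members higher, against 1.38% of all genes, and 1 lower, against 0.455%. Dim genes weigh on these shares. In a fit of only the 12955 genes above the overall median signal in at least 3 arrays, 4.57% were called in either direction. Of the 36 members among them, 13 were called, 11 higher and 2 lower. Slc25a34 is among the 11 and passed this filter only through its 3 AKO Cold arrays, where it was high. The median cold difference was 0.08 over the members and -0.00 over all genes, and 28 of the 45 were positive (49.2% of all genes). At an unadjusted p below 0.05 were 18 of the 45 members, against 13.2% of all genes. The macrophage markers had lower values in cold, and their part in these counts was not tested. The 6 cold and 6 RT arrays did not overlap for 8 members, against 2.06% of genes. These were Slc25a1, Slc25a5, Slc25a17, Slc25a35, Slc25a39, Slc25a46 and Slc25a51, higher in cold, and Slc25a45, lower in cold. Without the 3 muscle-rich arrays, which leaves 1 AKO Cold array, Slc25a34 alone of the 10 kept its call, and 61 of all genes were called in place of 407. The differences of Slc25a1, Slc25a39 and Slc25a51 were then 0.82, 0.47 and 0.52, and that of Slc25a42 was 0.38. The plot of averaged differences shows the called members spread over the role groups.

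**Figure D3:**
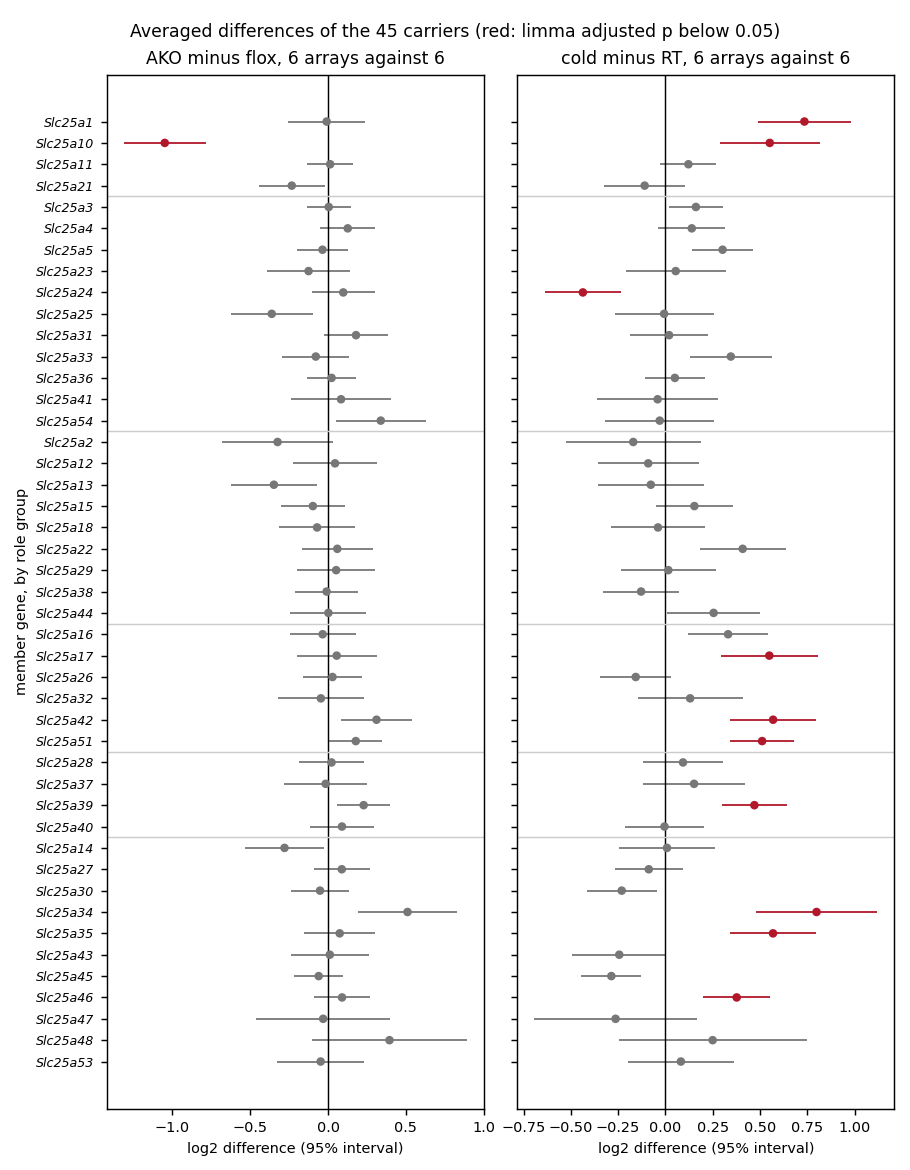
Points are the log2 difference of each of the 45 members, AKO minus flox on the left and cold minus RT on the right, with 95% intervals, and red marks an adjusted p below 0.05. Slc25a10 at -1.05 is the only red point on the left, and 10 members are red on the right, 9 of them above 0.

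Of the 11 carriers of nucleotides and phosphate, 0 were called higher and 1 lower in the cold average, against 1.38% and 0.455% of all genes. The ADP/ATP carriers hand matrix ATP to the cytosol, and Slc25a5, the broadly expressed form ANT2, had signals of 10.25 to 10.53 in AKO Cold, 10.44 to 10.48 in flox Cold, 10.00 to 10.23 in AKO RT and 10.05 to 10.20 in flox RT. Its averaged cold difference of 0.30 did not pass the test (SE 0.07, adjusted p = 0.0725), although cold and RT arrays did not overlap. Slc25a4, the muscle and heart form ANT1, differed by 0.14 (SE 0.08, adjusted p = 0.521), and its highest array in AKO Cold, AKO Cold 3 at 9.39, was also the richest in muscle markers, whose part in this value was not tested. Slc25a3, the phosphate carrier that feeds ATP synthase, differed by 0.16 (SE 0.07, adjusted p = 0.307). Slc25a4 and Slc25a5 are close paralogs, and cross-hybridisation between their probes was not tested.

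Slc25a24, a calcium-regulated ATP-Mg/phosphate carrier, was the 1 member called lower in cold. Its signals were 7.10, 7.21 and 7.15 in AKO Cold, against 7.66, 7.57 and 7.54 in AKO RT. In flox they were 6.91, 7.34 and 6.93 in cold, against 7.58, 7.60 and 7.30 at RT. The AKO groups did not overlap and the flox groups did, through flox Cold 2 and flox RT 3. The difference was -0.44 in each genotype, and the average passed the test (-0.44, SE 0.09, adjusted p = 0.0372) but held only without flox RT 3 or flox Cold 2 among the fits that left out 1 array (adjusted p up to 0.101). With the muscle markers as a covariate or with array weights the call was also lost.

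Its relatives did not follow it. Slc25a23 differed by 0.05 with cold (adjusted p = 0.904) and Slc25a25 by -0.01 (adjusted p = 0.991). Slc25a25 was lower in the 3 AKO Cold arrays (4.86 to 5.15) than in the 3 flox Cold arrays (5.43 to 5.53), a difference of -0.49 that was not called (SE 0.17, adjusted p = 0.595). Slc25a33, a pyrimidine nucleotide carrier, was at 5.66 to 6.15 in AKO Cold and 5.13 to 5.42 in AKO RT, where its 3 arrays lay below all other 9. Its cold difference in AKO was 0.62 (SE 0.14, adjusted p = 0.0916), against 0.07 in flox (adjusted p = 0.922).

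None of the 9 amino acid carriers was called in any of the 7 comparisons. Slc25a22, a glutamate carrier, came nearest. Its signals were 8.53, 8.50 and 8.56 in AKO Cold, above all other 9 arrays, and 8.13 to 8.41 in flox Cold, 7.74 to 8.26 in AKO RT and 7.84 to 8.22 in flox RT, with an averaged cold difference of 0.41 (SE 0.10, adjusted p = 0.0829). Slc25a44, the branched-chain amino acid carrier of brown fat, was at 7.82 to 7.94 in AKO Cold and 7.20 to 7.79 in AKO RT. The difference was 0.38 in AKO (adjusted p = 0.447) and 0.13 in flox (adjusted p = 0.853).

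The aspartate/glutamate carriers of the malate-aspartate shuttle showed no called difference. Slc25a12 had signals of 7.89, 8.16 and 8.70 in AKO Cold and 8.06 to 8.19 in flox Cold, so that AKO Cold spanned the range of all 12 arrays. Its order within AKO Cold was that of the muscle marker means, -1.78, 1.16 and 2.96, and the part of muscle in these values was not tested. Slc25a13, the other form, was lower in AKO by 0.35 in the average (-0.35, SE 0.13, unadjusted p = 0.0186), which was not called after adjustment with limma (adjusted p = 0.529).

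Of the 6 cofactor carriers, 3 were called higher in the cold average, against 1.38% of all genes. Their median cold difference was 0.42, against -0.00 over all genes. Slc25a51, the carrier that brings NAD into mitochondria, had signals of 7.14, 7.02 and 7.20 in AKO Cold, against 6.71, 6.80 and 6.68 in flox Cold. At RT they were 6.48, 6.38 and 6.34 in AKO and 6.47, 6.58 and 6.24 in flox. Both cold groups lay above both RT groups, and AKO Cold lay above flox Cold. The averaged rise was 1.43-fold (0.51, SE 0.08, adjusted p = 0.00766), and it was called in all 12 fits that left out 1 array.

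Slc25a42, the coenzyme A carrier, rose in AKO and was near its RT level in flox. Its signals were 7.05, 7.40 and 7.36 in AKO Cold, against 6.38, 5.96 and 6.46 in AKO RT. In flox they were 6.47, 6.62 and 6.49 in cold and 6.56, 6.29 and 6.32 at RT. AKO Cold lay above all other 9 arrays and the 2 flox groups overlapped. Slc25a42 was 2.01-fold higher in cold in AKO (1.00, SE 0.15, 95% interval 0.68 to 1.33, adjusted p = 0.012), against a difference of 0.13 in flox (95% interval -0.19 to 0.46, adjusted p = 0.835). The interaction of 0.87 (SE 0.21, unadjusted p = 0.00136) was not called over all genes by limma (adjusted p = 0.844), so the cold responses were not shown to differ. AKO minus flox in cold was 0.75 (SE 0.15, adjusted p = 0.0881). The cold average of 0.57 was called (SE 0.10, adjusted p = 0.0185), but not without flox Cold 2 or AKO Cold 2 (highest adjusted p 0.0538).

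Slc25a17, a carrier of cofactors in peroxisomes rather than mitochondria, was higher in cold by 0.55 in the average (SE 0.12, adjusted p = 0.0387). Its signals were 8.47, 8.40 and 7.95 in AKO Cold, against 7.88, 8.40 and 8.10 in flox Cold, and all 6 exceeded the RT range of 7.46 to 7.83. The call held only without flox Cold 1 or AKO Cold 3 when 1 array was left out (adjusted p up to 0.0956). Slc25a16, related to coenzyme A transport, differed by 0.33 (adjusted p = 0.131), Slc25a32, the FAD and folate carrier, by 0.13 (adjusted p = 0.737), and Slc25a26, the S-adenosylmethionine carrier, by -0.16 (adjusted p = 0.483).

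Among the 4 iron and glutathione carriers, Slc25a39 was called. It carries glutathione into mitochondria, and its signals were 8.44, 8.46 and 8.35 in AKO Cold, against 8.03, 8.01 and 7.97 in flox Cold. At RT they were 7.69, 7.73 and 7.86 in AKO and 7.93, 7.54 and 7.68 in flox. AKO Cold lay highest, flox Cold next, and the RT groups overlapped below them. The averaged rise in cold was 1.39-fold (0.47, SE 0.08, adjusted p = 0.0123) and was called in all 12 fits that left out 1 array. Its paralog Slc25a40 differed by -0.01 (adjusted p = 0.991), and the mitoferrins Slc25a28 and Slc25a37, which import iron, by 0.09 and 0.15 (adjusted p = 0.758 and 0.676).

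Of the 11 relatives of the uncoupling proteins and carriers of unsettled substrate, 3 were called higher in the cold average, against 1.38% of all genes. Slc25a34 had signals of 4.23, 3.70 and 4.66 in AKO Cold, against 3.10, 3.25 and 2.72 in AKO RT. The flox signals were 3.34, 3.20 and 3.40 in cold and 2.77, 2.98 and 2.91 at RT. The 3 AKO Cold arrays, the only ones above the overall median signal, lay above the other 9. Slc25a34 was higher in cold in AKO by 1.17 (SE 0.21, adjusted p = 0.0338), a size set against RT signals at the dim end of the arrays, against 0.43 in flox (SE 0.21, adjusted p = 0.564), and the averaged rise was 0.80 (SE 0.15, adjusted p = 0.0186). That average was lost when flox RT 1, AKO RT 3 or AKO Cold 1 was left out (adjusted p up to 0.0535).

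Slc25a35, a close relative of Slc25a34, had signals of 8.80 to 9.04 in AKO Cold and 8.58 to 8.72 in flox Cold, all above the RT arrays, which ranged over 7.96 to 8.32 in AKO and 7.94 to 8.50 in flox. Its averaged rise was 0.57 (SE 0.11, adjusted p = 0.0186) and was lost without AKO RT 3, flox Cold 2 or AKO Cold 1 (adjusted p no higher than 0.0566). Slc25a46, which sits in the outer membrane and acts in mitochondrial shape, rose by 0.38 (SE 0.08, adjusted p = 0.0415), a call that held only without flox RT 3 or flox Cold 3 (adjusted p up to 0.106). Slc25a45 was lower in every cold array (6.74 to 6.98) than in every RT array (7.00 to 7.34), a difference of -0.29 that did not pass the test (SE 0.07, adjusted p = 0.0823). The dim Slc25a48 varied widely among replicates, with 3.40 to 4.21 in AKO Cold and 2.39 to 3.56 in flox Cold. The UCP relatives Slc25a14, Slc25a27 and Slc25a30 differed with cold by 0.01, -0.09 and -0.23 and were not called.

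**Figure D4:**
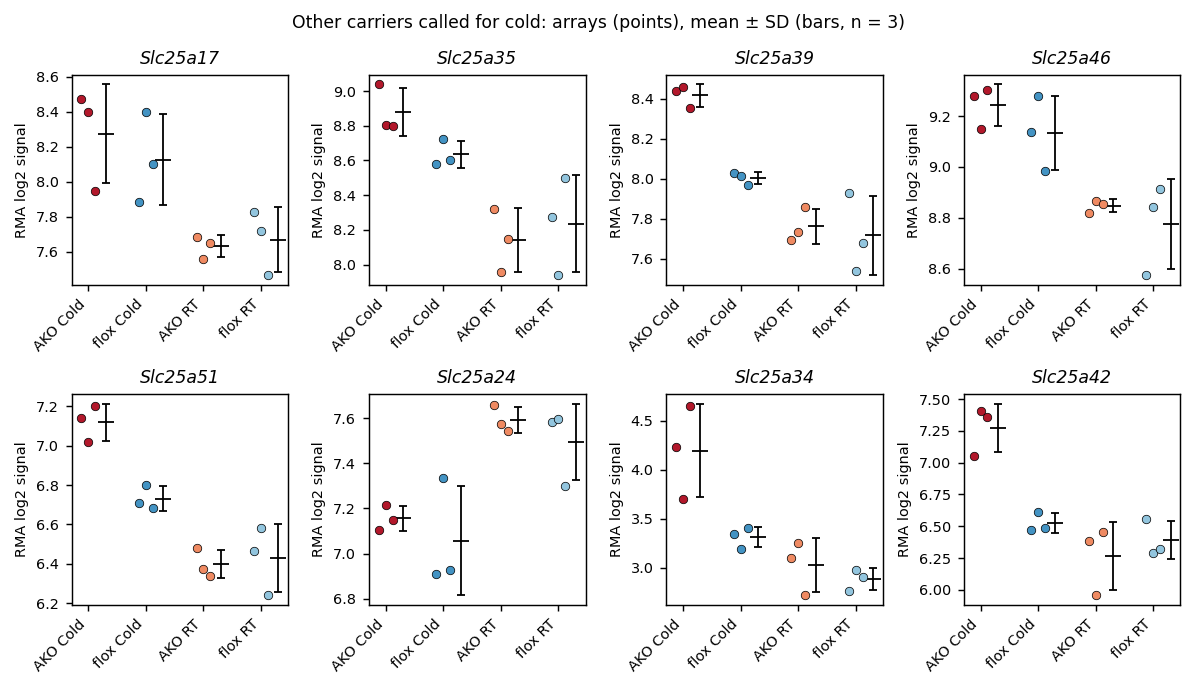
Panels show the RMA log2 signal of each array for the 8 members called for cold outside the carboxylate carriers, with the group mean and SD (n = 3). AKO Cold lies above all other arrays for Slc25a34, Slc25a35, Slc25a39, Slc25a42 and Slc25a51, and both cold groups lie mostly below RT for Slc25a24.

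In AKO, 4 members rose in cold, Slc25a34, Slc25a39, Slc25a42 and Slc25a51, against 0.379% of all genes called higher. In AKO, 15 members had an unadjusted p below 0.05, against 9.86% of all genes, and 20 members had arrays that did not overlap, against 17.2% of genes. In flox, 0 members were called by limma, with 12 at an unadjusted p below 0.05, against 0.00902% and 9.44% of all genes. The flox arrays of 13 members did not overlap, against 12.9% of genes. The median over the members was 0.13 in AKO and 0.06 in flox, against 0.00 and -0.01 over all genes. These responses in AKO and flox rest on separate arrays.

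The difference between these responses was tested as the interaction, and 0 members were called by limma, with 5 at an unadjusted p below 0.05, against 0.018% and 4.78% of all genes. The 5 were Slc25a33, Slc25a34, Slc25a39, Slc25a42 and Slc25a51, and each was positive, as were 554 of the 1061 genes at that level. Of the 9 members that rose in the cold average, 7 had the larger difference in AKO, the exceptions being Slc25a1 (0.64 in AKO and 0.83 in flox) and Slc25a10. The cold difference was larger in AKO for 51.6% of all genes. That share among all genes called higher in the cold average was not computed. The AKO Cold arrays lay above all other 9 for 6 members, Slc25a22, Slc25a34, Slc25a35, Slc25a39, Slc25a42 and Slc25a51, against 1.53% of genes. The beige marker means were also highest in these 3 arrays, and their part in the 6 members' values was not tested.

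The AKO calls in cold depended on single arrays. Slc25a42 (adjusted p up to 0.0597) lost its call without AKO Cold 2 or AKO Cold 3. Without AKO RT 2, AKO Cold 2 and AKO Cold 3, the muscle-rich arrays, its difference was 0.63 (adjusted p = 0.405), while those of Slc25a34, Slc25a39 and Slc25a51 were 1.31, 0.66 and 0.73, none called. Slc25a51 (up to 0.0833) lost it without AKO RT 2, AKO RT 3, AKO Cold 1 or AKO Cold 3, and Slc25a39 (up to 0.119) without any AKO array. Slc25a34 (up to 0.154) kept it only without flox RT 1, flox RT 2, flox Cold 3 or AKO Cold 2.

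**Figure D5:**
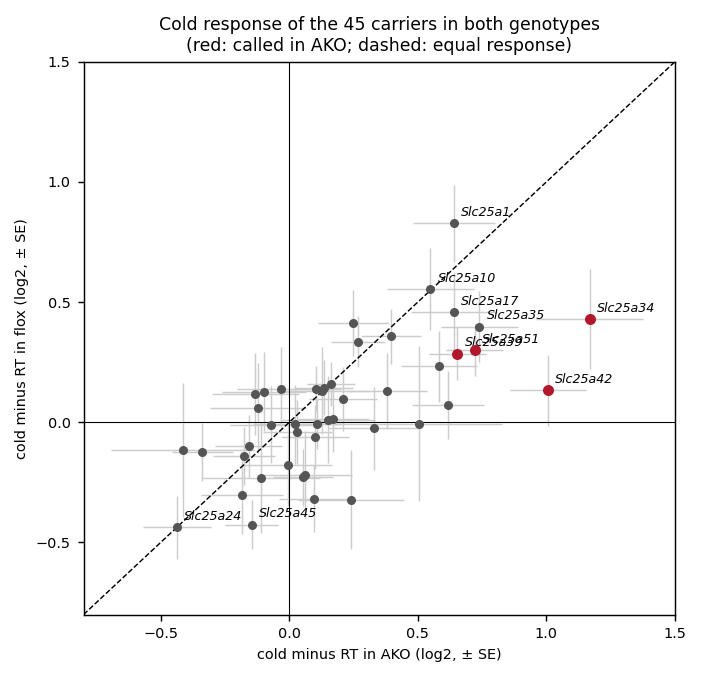
Each point is a member, with cold minus RT in AKO on the horizontal axis and in flox on the vertical axis (log2, bars ± SE), and the dashed line marks equal responses. Slc25a42 and Slc25a34 lie farthest to the right of the line, at 1.00 and 1.17 in AKO against 0.13 and 0.43 in flox, while Slc25a10 lies on it.

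Few members were called for genotype. Apart from Slc25a10, none of the 45 was called at either temperature or in the average. At an unadjusted limma p below 0.05 were 10 members in the average, against 7.23% of all genes. In cold there were 6 and at RT 5, against 6.28% and 6.15% of all genes. The median AKO minus flox difference over the members was 0.08 in cold and -0.04 at RT, against 0.00 and -0.01 over all genes. The groups did not overlap for 10 members in cold and for 5 at RT, against 11.3% of genes in each comparison. Of the 10 in cold, 6 were higher and 4 lower in AKO, against 1264 and 1232 of the 22180 genes. All 5 at RT were lower, where 1270 of all genes were lower and 1244 higher. The 5 include the dim Slc25a2 and Slc25a21.

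Ucp1 and Slc25a20, which the rule leaves out, had larger averaged cold differences than any of the 45 members. Ucp1 was at 10.41 to 10.92 in AKO Cold and 3.71 to 5.72 in flox Cold, and at 2.61 to 3.10 in AKO RT and 2.63 to 2.92 in flox RT, a cold average of 4.93. Slc25a20, the carnitine carrier that brings fatty acyl groups to oxidation, was at 8.54, 8.76 and 8.68 in AKO Cold and 7.95 to 8.07 in flox Cold, and rose by 0.91 in the cold average (adjusted p = 0.000183). Among 20 measured mitochondrial transporters of other families, 3 rose in that average, against 1.38% of all genes. They were Mpc1, a subunit of the mitochondrial pyruvate carrier (0.95, adjusted p = 0.00181), Letm1, an ion exchanger (0.52, adjusted p = 0.0118), and Sfxn1, a serine transporter (0.45, adjusted p = 0.0354). Of the 9 genes that guide carriers into the inner membrane, 4 rose, Timm8a1, Timm9, Timm8b and Tomm70a, by 0.30 to 0.78, against the same 1.38%.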

How the data were processed

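RNA of 12 pools of inguinal fat was hybridised to Affymetrix single-colour arrays (WT Plus kit). The deposited values are log2 signals that the authors made by RMA (R 3.1.1), a method of background correction, quantile normalization and probe summary per transcript cluster. The annotation used in that step is not given in the sources used here. Of 41345 clusters, 23521 had exactly 1 gene symbol in the platform annotation, and the cluster of highest mean signal stood for its gene. No value columns were left out and no dim genes were removed. The number of arrays limits the precision, with a median SE of 0.151 for a difference between 2 groups and 0.107 for the averaged comparisons.

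Group differences were fitted in limma 3.58.1 under R 4.3.3 (1 mean per group over 12 arrays, eBayes, two-sided), with Benjamini-Hochberg adjustment in each of the 7 comparisons. With 3 arrays against 3, the smallest p of an exact permutation test is 0.1. The members, gene lists and comparisons were chosen with earlier results of these data known. All members may be named, with full statistics for those called, for the 2 with the smallest p per comparison and direction, and for 11 chosen by role. The procedure was tested on simulated arrays with the means and spreads of these genes. Of simulated differences of 0.5 between AKO and flox in cold, 39.5% were called, and of differences of 1, 86.1%. These shares depend on how many genes were changed, and members that were not called may still differ. Promoters are RefSeq windows, searched over the 250 bases before the start. Alternatives were 2 renormalizations, a filter on dim genes, averaged clusters, array weights, trend and robust settings in eBayes, only the 6 arrays compared, a replicate block, the methods' t-test, a threshold of 0.1, a muscle covariate, and leaving out each array or the 3 muscle-rich arrays.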

Additional observations from a re-analysis of the deposited data

How the results depend on the processing

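Counts of called members are given here. Centring or quantile normalization shifted the median of all genes by -0.04 to 0.06, and these, the dim filter, averaged clusters and array weights moved no count by more than 1.5 times. For AKO against flox at RT, the count was 0 in place of 1 with only the 6 arrays compared, with the methods' t-test, without the 3 muscle-rich arrays and with the muscle covariate, and in cold it was likewise 0 under each of these, and 2 at an adjusted p below 0.1. The cold response in flox (0) became 1 with trend and robust settings, and that in AKO (4) became 0 with only the 6 arrays compared, with the methods' t-test and without the 3 muscle-rich arrays. Without those 3 arrays, which leaves AKO Cold with 1 array assumed to vary like the others, the averaged genotype count (1) was 0 and the averaged cold count (10) was 1.

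With the replicate number as a block, the count was 0 for genotype at RT, 0 for genotype in cold, 2 for cold in AKO, 8 for the cold average and 1 for the genotype average. Deviations from the group means correlated between same-numbered arrays at r from -0.24 to 0.28 over 18 pairs (median 0.03). Between differently numbered arrays, r was -0.44 to 0.40 over 36 pairs (median -0.01). The labels do not say whether the numbers stand for a pairing or a batch.

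Leaving out 1 array gave counts of 0 to 1 for genotype at RT, 0 to 2 for genotype in cold, 0 to 1 for cold in flox, 0 to 5 for cold in AKO, 0 to 0 for the interaction, 1 to 1 for the genotype average and 4 to 9 for the cold average. The averaged cold differences that changed sign were small. Slc25a13 (-0.0773) became 0.0813 without the 3 muscle-rich arrays and ranged from -0.1617 to 0.022 when 1 array was left out. Slc25a25 (-0.0069) became 0.0299 with centring, 0.0239 with quantile normalization and 0.0535 without the 3 muscle-rich arrays, and ranged from -0.1027 to 0.0612 when 1 array was left out. Among other values of single members, 432 kept their direction and side of the threshold under the alternatives, 39 lost a call and 9 gained one. When 1 array was left out, 444 kept both, 86 lost a call and 3 gained one. Many of these values were not called in the main fit and had no call to lose. The numbers kept thus do not measure how stable the calls were.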
